A study of Mus musculus with 16 samples.

Results

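The genes described here are *Cyp7a1* and *Cyp8b1*, which encode hydroxylases of the classic route of bile acid synthesis, and 4 nuclear receptors of their transcriptional control: *Nr1h4* (FXR), *Nr0b2* (SHP), *Nr5a2* (LRH-1) and *Hnf4a* (HNF4A). These 6 genes were chosen by symbol among the 52143 genes of the deposited count table, and all 6 passed the filter on low values that left 11324 genes tested. FGFR4 knockdown (KD) went with more *Cyp7a1* mRNA in HFD-fed mice and not in chow-fed mice. *Cyp8b1* and the 4 receptors were not called in that comparison.

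Bile acids are made from cholesterol in hepatocytes. CYP7A1, cholesterol 7α-hydroxylase, starts the classic route and limits its rate, and CYP8B1, sterol 12α-hydroxylase, steers its products towards cholic acid. Bile acids bind FXR, which induces the receptor SHP, a repressor that lacks a DNA-binding domain and acts on other receptors such as LRH-1 and HNF4A at bile acid synthesis genes. The ileum adds a second brake: FXR there induces the hormone FGF15, which acts on hepatocytes through FGFR4 and its coreceptor KLB and represses *Cyp7a1*.

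The 16 libraries were made from livers of male C57BL6/J mice, 4 mice in each of 4 groups. From 6 weeks of age the Chow and Chow/FGFR4 KD groups ate chow, and the HFD and HFD/FGFR4 KD groups ate a high-fat diet with 60% fat, for 12 weeks. During these weeks the KD groups received 3 mg/kg of a GalNAc-conjugated siRNA against *Fgfr4* every 2 weeks, and the Chow and HFD groups received saline. GalNAc directs the siRNA to the asialoglycoprotein receptor of hepatocytes, so that other cells of the liver may keep the receptor. The controls received no other siRNA, so an action of the siRNA as such and the loss of FGFR4 cannot be told apart. The time of day and the feeding state at which livers were taken are not given in the sources used here.

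Levels are given as CPM, that is counts divided by the library total, scaled with TMM factors, and multiplied by 1000000. Total counts per library ranged from 3445949 to 5976449. The 6 hepatocyte markers examined (*Alb*, *Apoa1*, *Ttr*, *Apob*, *Serpina1a* and *Cps1*) summed to between 60200 and 81300 CPM in the 16 libraries, with no marker at 0. In these bulk livers, fewer cells of a type and less RNA per cell cannot be told apart. One library stood apart from its label: along the first principal component, which held 46.1% of the variance of the 500 most variable genes, HFD/FGFR4 KD 1 scored -6.33, within the range of the chow-fed libraries (-23.2 to -4.84), and HFD/FGFR4 KD 2 to 4 had scores from 16.7 to 20.6. Values without it are also given, for all members in KD on HFD and for the called members in the other comparisons it entered.

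The target of the siRNA was lowered in every treated library. In chow-fed mice *Fgfr4* went from 29.7 ± 4.57 CPM (mean ± SD, n = 4) with saline to 4.78 ± 1.601 CPM with KD. In HFD-fed mice it went from 25.7 ± 4.25 to 3.74 ± 1.35 CPM. The log2 change was -2.62 on chow and -2.78 on HFD (limma-voom, adjusted p = 0.000223 and 9.06e-05), and the 2 changes did not differ detectably (difference -0.16, adjusted p = 0.967). *Klb*, the coreceptor of FGFR4 for FGF15, was not called for KD on either diet (log2 change 0.08 on HFD, adjusted p = 0.873, and -0.24 on chow, adjusted p = 0.976).

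All positions are in GRCm38. *Cyp7a1* (ENSMUSG00000028240) lies on the minus strand of chromosome 4 from 6265612 to 6275633, with 6 merged exons of 4174 bases in all. *Cyp8b1* (ENSMUSG00000050445) is a single exon of 1950 bases on the minus strand of chromosome 9, from 121914356 to 121916305. *Nr1h4* (ENSMUSG00000047638) lies on chromosome 10 from 89454234 to 89533585, *Nr0b2* (ENSMUSG00000037583) on chromosome 4 from 133553376 to 133556536, *Nr5a2* (ENSMUSG00000026398) on chromosome 1 from 136842571 to 136960448 and *Hnf4a* (ENSMUSG00000017950) on chromosome 2 from 163506808 to 163572910. All are protein-coding. Few reads could have come from other genes, since 2.09% of the 31-base words in the transcripts of *Nr5a2* and 0.31% of those of *Cyp7a1* also occur in transcripts of another gene, and no such word was found for the other 4.

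*Cyp7a1* in HFD/FGFR4 KD reached 208, 184, 172 and 334 CPM in libraries 1 to 4. In HFD the 4 libraries had 34.9, 41.7, 29.9 and 59.2 CPM. Every KD library lay above every HFD library, and the groups did not overlap, which was true of 6.49% of all genes tested in this comparison. The group means were 224 ± 74.5 CPM with KD and 41.4 ± 12.8 CPM without it. The log2 change was 2.45 (SE 0.326, 95% interval 1.76 to 3.13), or 5.45-fold, with an adjusted p of 0.00276 (limma-voom, Benjamini-Hochberg), and *Cyp7a1* ranked 4 of 11324 genes by p. A gene was called at a p under 0.05 and an adjusted p under 0.25, which 3.14% of the genes tested (356) passed for KD on HFD. This count depended on single libraries: it was 169 without HFD 1, 605 without HFD 2 and 89 without HFD 3, and it was 138, 127 and 95 without HFD/FGFR4 KD 1, 3 and 4. Of the 6 members, 1 was called, *Cyp7a1*. Without HFD/FGFR4 KD 1 its log2 change was 2.47 (adjusted p = 0.00945), and *Cyp8b1*, *Nr1h4*, *Nr0b2*, *Nr5a2* and *Hnf4a* were at 0.073, 0.030, 0.17, 0.037 and 0.090 (adjusted p from 0.929 to 0.970).

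*Cyp7a1* did not rise with KD on chow. The Chow libraries 1 to 4 had 66.4, 20.6, 64.1 and 57.3 CPM. The Chow/FGFR4 KD libraries had 38.3, 32.01, 50.6 and 18.2 CPM. Every KD library lay below 3 of the 4 Chow libraries, and Chow 2 was nearly as low as the lowest of them. The log2 change was -0.56 (SE 0.373, 95% interval -1.35 to 0.23, adjusted p = 0.976). It was -0.94 without Chow 2 (unadjusted p = 0.00646 and adjusted p = 0.686 in limma-voom) and -0.30 without Chow/FGFR4 KD 4 (adjusted p = 0.999). KD on chow called 0.00883% of all genes, a single gene, *Fgfr4*.

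The KD effect on *Cyp7a1* therefore differed between the diets, and the difference was tested as an interaction. It was 3.01 on the log2 scale (SE 0.495, 95% interval 1.96 to 4.05, adjusted p = 0.0764), the second smallest p among all genes. Of the genes tested, 0.0353% were called for this difference. The adjusted p exceeded 0.25 when libraries were scaled by totals alone (2.87, adjusted p = 0.276) and without HFD 1 (2.94, adjusted p = 0.256). Without HFD/FGFR4 KD 1 it was 3.03 (adjusted p = 0.137). Diet alone did not move *Cyp7a1* detectably: HFD against Chow gave -0.28 (SE 0.347, adjusted p = 0.653), and without Chow 2 it gave -0.66 and passed the threshold (adjusted p = 0.183). Under KD, HFD against chow gave 2.72 (SE 0.352, adjusted p = 0.000755), with no overlap between the groups.

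**Figure D1:**
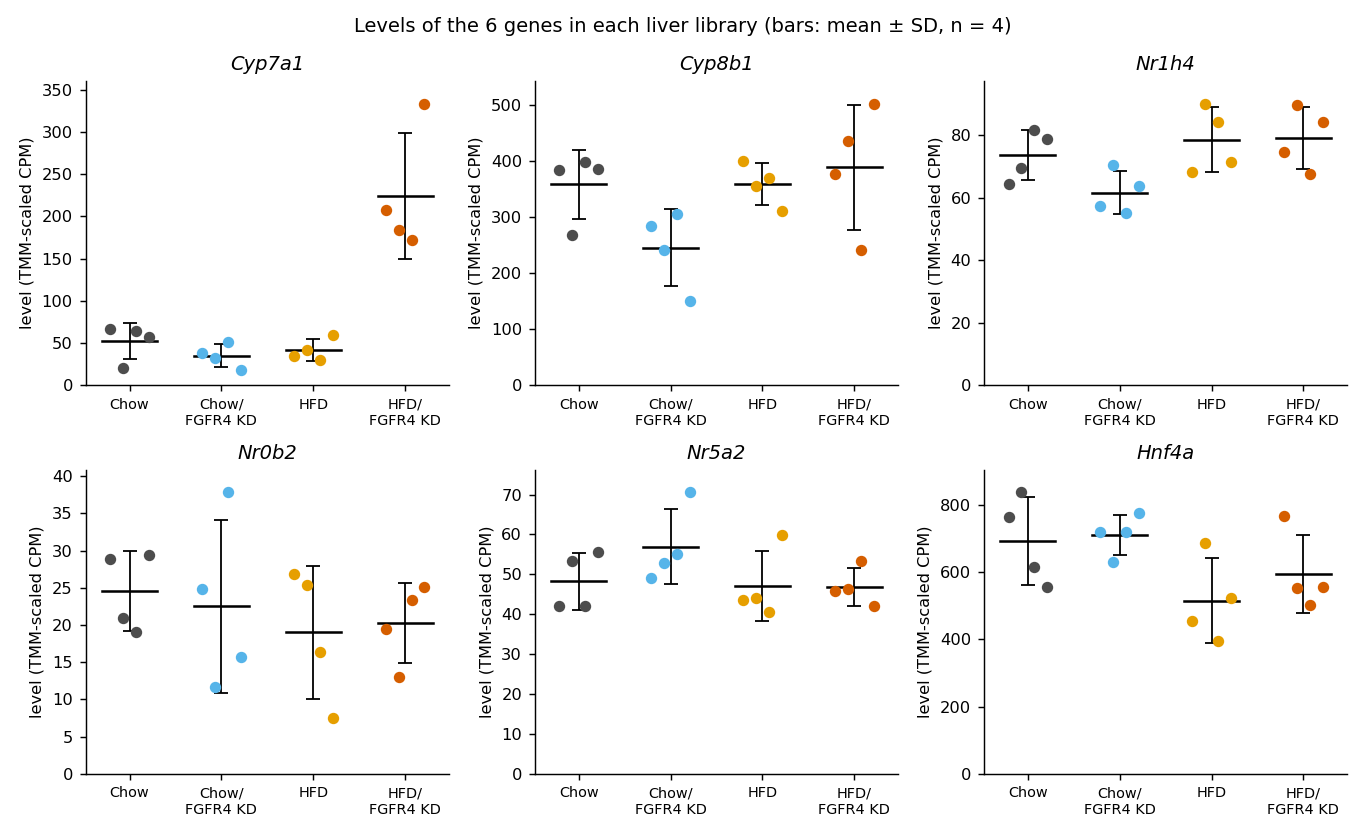
Level of each gene in every library, in TMM-scaled CPM on axes that start at 0. Points are single libraries, replicates 1 to 4 from left to right within a group, and bars give the mean ± SD (n = 4). The 4 HFD/FGFR4 KD libraries lie between 172 and 334 CPM for *Cyp7a1*, above all 12 other libraries, and for the other 5 genes no group is set apart from all others.

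*Cyp8b1* was the more abundant of the hydroxylase mRNAs. On the scale of CPM per kilobase of exon, its Chow level was 184 ± 31.5 and that of *Cyp7a1* was 12.5 ± 5.12. In Chow the 4 libraries had 384, 267, 398 and 385 CPM of *Cyp8b1*. In Chow/FGFR4 KD they had 284, 242, 306 and 150 CPM. In HFD they had 399, 355, 370 and 311 CPM. In HFD/FGFR4 KD they had 377, 435, 240 and 502 CPM, a range that covers that of HFD. KD on HFD gave a log2 change of 0.07 (SE 0.225, 95% interval -0.40 to 0.55, adjusted p = 0.937), so that a rise like that of *Cyp7a1* lies outside the interval.

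On chow, *Cyp8b1* had a lower mean with KD, 245 ± 69.2 CPM against 358 ± 61.4 CPM. The log2 change was -0.58 (SE 0.223), with an unadjusted p of 0.0191 in limma-voom that did not pass the adjustment (adjusted p = 0.976), and the groups overlapped. None of the 6 members was called for KD on chow by limma-voom, edgeR or DESeq2. The number with an unadjusted p under 0.05 was 1 with limma-voom, 2 with edgeR and 1 with DESeq2. Without Chow/FGFR4 KD 4, the lowest library, the *Cyp8b1* change was -0.36 (adjusted p = 0.999). Under KD, HFD against chow gave 0.67 (SE 0.223, adjusted p = 0.111), which was called. That call was lost without Chow/FGFR4 KD 4 (0.44, adjusted p = 0.270) and without HFD/FGFR4 KD 4 (0.53, adjusted p = 0.284).

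The promoter of *Cyp8b1* is shown because letters bound by LRH-1 and by HNF4A, both measured here, lie side by side in it. Capitals mark the LRH-1 core CAAGGNC and the HNF4A core AAGTCCA. The window runs from 250 bases before the start site to 50 after it, chr9:121916256-121916555 (GRCm38.p6, RefSeq, minus strand, written 5′ to 3′ on the strand of the gene).
Cyp8b1: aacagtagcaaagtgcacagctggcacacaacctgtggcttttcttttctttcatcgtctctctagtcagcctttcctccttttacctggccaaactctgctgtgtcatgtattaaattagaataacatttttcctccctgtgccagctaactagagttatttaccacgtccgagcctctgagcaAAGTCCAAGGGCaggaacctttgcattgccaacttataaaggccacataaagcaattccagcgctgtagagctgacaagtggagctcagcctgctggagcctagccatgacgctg
The HNF4A core lies from -65 to -59 and the LRH-1 core from -60 to -54 relative to the start site, so that the motifs share 2 bases. Searched on both strands, CAAGGNC was found in 17.8% and AAGTCCA in 4.17% of 32851 RefSeq promoter windows of the same length. The match is a description of letters and says nothing of binding in these livers. The promoter table matched 5 of the 6 genes and has no entry for *Cyp7a1*.

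The unequal change of the hydroxylases was measured within each library as the ratio of *Cyp7a1* to *Cyp8b1* CPM, which does not depend on the scaling of the library. Per kilobase of exon, *Cyp7a1* stood at 25.7%, 19.7%, 33.5% and 31.04% of *Cyp8b1* in HFD/FGFR4 KD 1 to 4. In the 12 other libraries it stood between 3.61% in Chow 2 and 8.88% in HFD 4. The log2 ratio of CPM (with 0.5 CPM added to each) was -0.79 ± 0.340 in HFD/FGFR4 KD and -3.14 ± 0.555 in HFD. The difference of 2.35 had p = 0.0286 in a two-sided exact permutation test, the smallest p that 4 against 4 libraries allow (adjusted p = 0.0952 over 10 tests of 2 ratios). Chow/FGFR4 KD and Chow had -2.84 ± 0.179 and -2.89 ± 0.525, a difference of 0.05 (exact permutation p = 0.943). The KD effects on the ratio differed between the diets by 2.30 (exact permutation p = 0.0155, adjusted p = 0.0952). That test exchanged KD labels within each diet, so its null is no KD effect on either diet and not equal effects. The ratio was above that of every other library in 4 of 4 HFD/FGFR4 KD libraries, and neither permutation test passed 0.05 after adjustment.

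**Figure D2:**
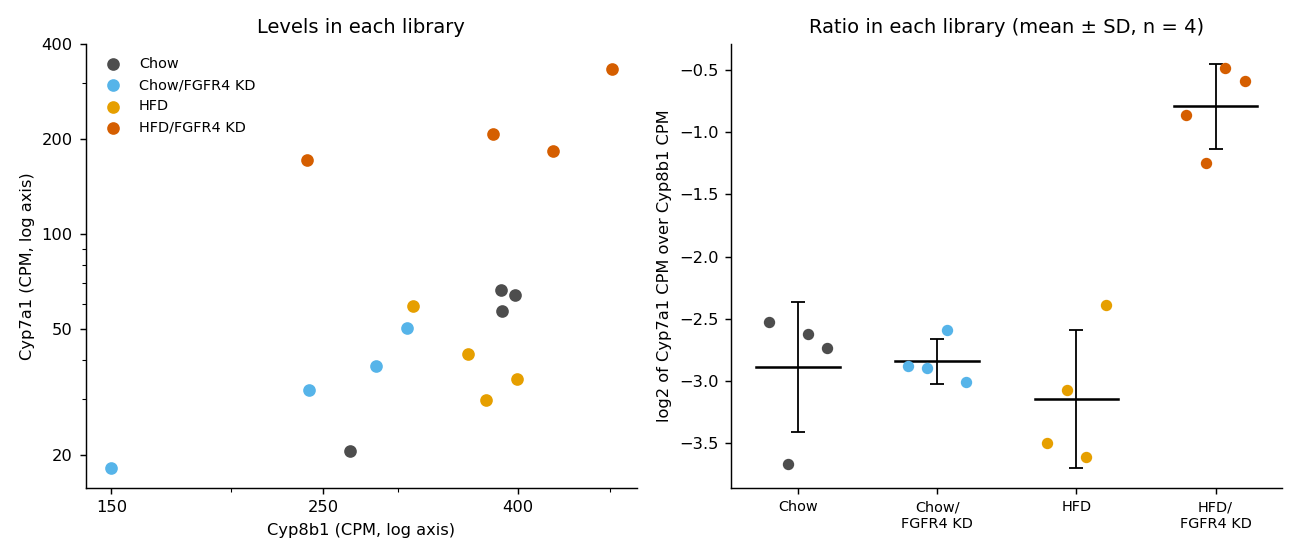
Left, *Cyp7a1* against *Cyp8b1* CPM in each library, both on log axes. Right, the log2 ratio of the 2 levels in each library with the group mean ± SD (n = 4). The HFD/FGFR4 KD libraries lie above the others on the left, and their log2 ratios (-1.24 to -0.48) lie above those of the 12 other libraries (-3.66 to -2.39).

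*Nr1h4* encodes FXR, the bile acid sensor. Its CPM in Chow 1 to 4 was 64.6, 69.7, 81.7 and 78.8. In Chow/FGFR4 KD it was 57.3, 70.4, 55.1 and 64.0. In HFD it was 68.4, 90.2, 84.5 and 71.5. In HFD/FGFR4 KD it was 74.6, 89.9, 67.7 and 84.5. All groups overlapped, and the spread within groups was small, with coefficients of variation from 10.8% to 13.2%. KD on HFD gave a log2 change of 0.01 (SE 0.117, 95% interval -0.24 to 0.25, adjusted p = 0.991), and KD on chow gave -0.25 (SE 0.122, adjusted p = 0.976). HFD against chow under KD gave 0.35 (SE 0.121, adjusted p = 0.121), a call that was lost without HFD/FGFR4 KD 2 (0.29, adjusted p = 0.271) or 4 (0.32, adjusted p = 0.265). Without KD, the same diet comparison gave 0.09 (SE 0.117, adjusted p = 0.673). With libraries scaled by totals alone it gave 0.37 and was called (adjusted p = 0.0756), or 0.083 relative to the median of all genes under that scaling.

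*Nr0b2* encodes SHP, the FXR-induced repressor, and was the least abundant member by CPM. Its 4 Chow libraries had 28.9, 20.9, 19.1 and 29.4 CPM. The Chow/FGFR4 KD libraries had 24.8, 11.7, 37.8 and 15.7 CPM. The HFD libraries had 26.8, 25.3, 16.4 and 7.47 CPM. The HFD/FGFR4 KD libraries had 19.5, 13.1, 23.4 and 25.1 CPM. The libraries of a group differed more than the group means did, and the lowest value, in HFD 4, rested on 37 counts. The log2 change for KD was 0.16 (SE 0.366, 95% interval -0.61 to 0.94, adjusted p = 0.913) on HFD and -0.27 (SE 0.372, 95% interval -1.05 to 0.52, adjusted p = 0.979) on chow. These intervals are wide enough to hold a change of over 1.5-fold in either direction on HFD, so that smaller changes of *Nr0b2* were not detectable at this depth and group size.

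SHP mRNA relative to FXR mRNA was also compared, as the log2 ratio of *Nr0b2* to *Nr1h4* CPM. The group means were -1.59 ± 0.399 in Chow, -1.57 ± 0.883 in Chow/FGFR4 KD, -2.16 ± 0.787 in HFD and -1.97 ± 0.535 in HFD/FGFR4 KD. The largest difference, -0.58 for HFD against Chow, had an exact permutation p of 0.257. The difference for KD on HFD was 0.19 (exact permutation p = 0.714).

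The *Nr0b2* promoter window is given because SHP acts on LRH-1 and its own promoter holds the LRH-1 core, in capitals, from -201 to -195 (chr4:133553126-133553425, GRCm38.p6, RefSeq, plus strand).
Nr0b2: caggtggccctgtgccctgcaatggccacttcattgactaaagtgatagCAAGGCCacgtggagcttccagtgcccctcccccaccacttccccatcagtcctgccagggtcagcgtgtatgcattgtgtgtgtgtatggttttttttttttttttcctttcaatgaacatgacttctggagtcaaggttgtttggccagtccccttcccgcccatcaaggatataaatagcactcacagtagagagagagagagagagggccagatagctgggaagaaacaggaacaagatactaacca
The windows of *Nr1h4*, *Nr5a2* and *Hnf4a* held neither core. The nuclear receptor half-site AGGTCA, present in 16.3% of all windows, occurred once in that of *Nr1h4* and once in a window of *Nr5a2*, and the D-box TTATGNAA (3.38% of windows) occurred in none of the 5 genes.

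*Nr5a2* encodes LRH-1, an activator of *Cyp7a1* and *Cyp8b1*. Its CPM was 42.0, 53.2, 42.0 and 55.6 in Chow and 49.2, 52.8, 55.1 and 70.6 in Chow/FGFR4 KD. It was 43.5, 44.0, 40.5 and 60.0 in HFD and 45.7, 46.3, 53.5 and 42.0 in HFD/FGFR4 KD. The means of 3 groups lay between 46.9 and 48.2 CPM, and that of Chow/FGFR4 KD, at 56.9 ± 9.43 CPM, was not detectably higher than Chow (log2 change 0.24, SE 0.143, adjusted p = 0.976). KD on HFD gave 0.02 (SE 0.140, 95% interval -0.27 to 0.32, adjusted p = 0.969).

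*Hnf4a*, a receptor that keeps hepatocyte genes active, was the most abundant of the 4 regulators per kilobase, at 144 ± 27.1 CPM per kilobase in Chow against 32 ± 3.46 for *Nr1h4*, 21.7 ± 4.72 for *Nr0b2* and 8.17 ± 1.23 for *Nr5a2*. Chow 1 to 4 had 765, 838, 614 and 555 CPM. Chow/FGFR4 KD had 719, 631, 720 and 776 CPM. HFD had 455, 688, 396 and 522 CPM. HFD/FGFR4 KD had 767, 553, 502 and 557 CPM. HFD lowered *Hnf4a* in saline-injected mice by the test (log2 change -0.44, SE 0.167, adjusted p = 0.108), with HFD 2 inside the range of Chow. It was 1 of 6 members called in this comparison, in which 26% of all genes were called and 16.1% of genes had groups without overlap. The call was lost without Chow 1, Chow 2, HFD 1 or HFD 3 (changes from -0.39 to -0.32) and when libraries were scaled by totals (-0.16, adjusted p = 0.413), which moved the median of all genes to 0.287 and left *Hnf4a* at -0.45 relative to that median. KD on HFD gave 0.22 (SE 0.167, adjusted p = 0.695), and 0.090 without HFD/FGFR4 KD 1. HFD against chow under KD gave -0.27 (adjusted p = 0.379), and without HFD/FGFR4 KD 1 it gave -0.40 and was called lower (adjusted p = 0.158).

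**Figure D3:**
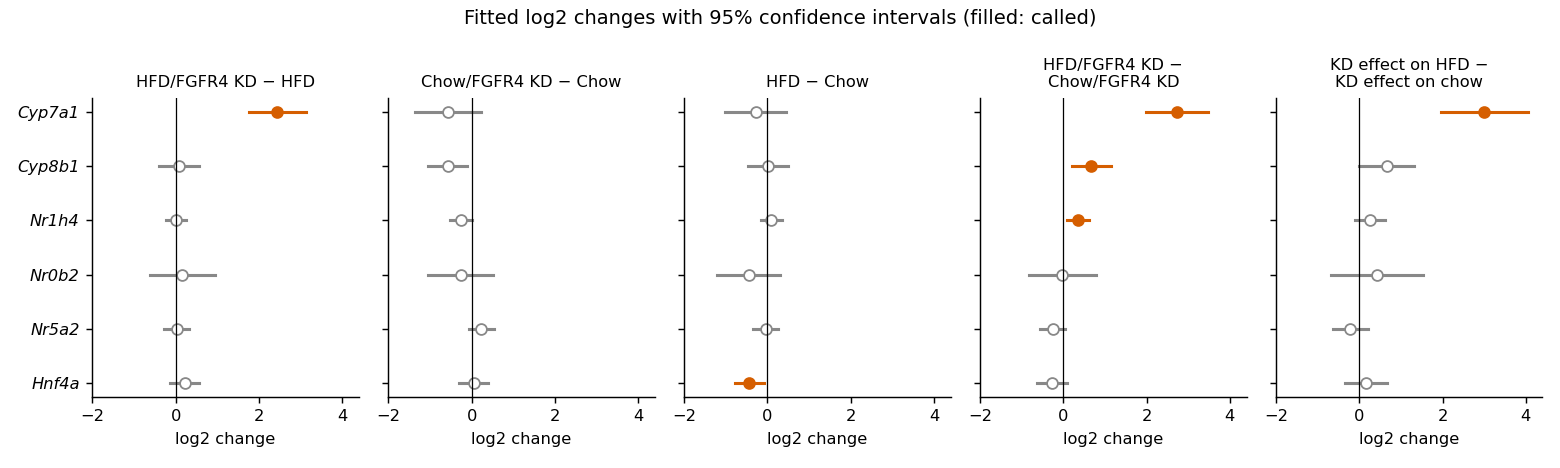
Fitted log2 change of each gene with its 95% confidence interval, for KD on each diet, HFD on each treatment and the difference of the KD effects. Filled points were called. *Cyp7a1* stands at 2.45, 2.72 and 3.01 in the 3 panels in which it was called.

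For HFD against chow under KD, 3 of the 6 members were called, all higher (*Cyp7a1*, *Cyp8b1* and *Nr1h4*), where 20.2% of all genes were called and 11.5% had groups without overlap. Without HFD/FGFR4 KD 1 these 3 stayed called (2.74, 0.66 and 0.37, adjusted p = 0.00112, 0.126 and 0.110), and *Hnf4a* was called lower as well. In the KD comparison on chow, 2.52% of all genes and no member had groups without overlap. The comparisons share groups and their values are not independent. Ordered by mean CPM, *Cyp7a1* in HFD/FGFR4 KD exceeded its level in Chow, the next group (log2 difference 2.16, adjusted p = 0.00372), and Chow, HFD and Chow/FGFR4 KD did not differ beyond their spread. For the other 5 members no neighbouring pair of groups in the order differed by the test.

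The members were also compared within groups, library by library. Over the 16 deviations from group means, *Cyp8b1* and *Nr5a2* gave r = -0.71 and rho = -0.56 (permutation p = 0.00342 and 0.0261, adjusted p = 0.0513 and 0.223 over 15 pairs), and r was -0.57 without the 2 libraries farthest in *Cyp8b1* and -0.44 with scaling by library totals. *Cyp7a1* and *Cyp8b1* gave r = 0.68 and rho = 0.59 (permutation p = 0.0102 and 0.0297, adjusted p = 0.0764 and 0.223), and r was 0.45 without Chow 2 and Chow/FGFR4 KD 4, on which the relation largely rested. None of the 15 pairs passed an adjusted p of 0.05, and the genes of a library share its scaling factor. Chow/FGFR4 KD 4, the library lowest in both hydroxylases, had 2677 CPM of the acute-phase gene *Saa1* and 2378 CPM of *Saa2*, above all 15 other libraries (*Saa1* 11.5 to 306 CPM). The part of the acute phase in these levels was not tested.

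**Figure D4:**
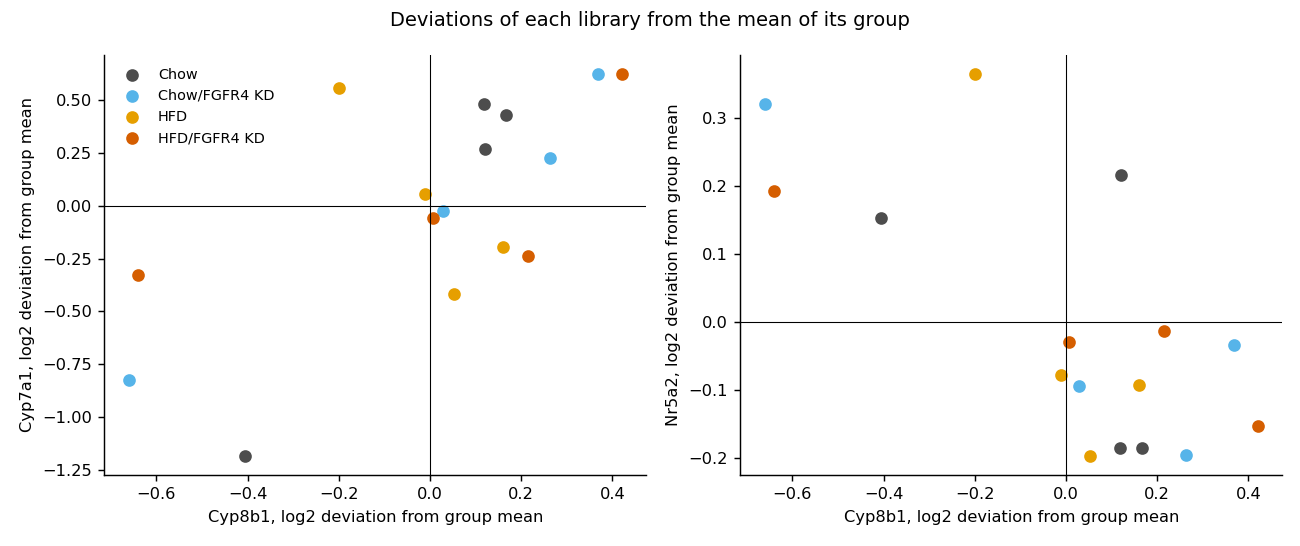
Deviation of each library from its group mean on the log2 scale, for *Cyp7a1* (left) and *Nr5a2* (right) against *Cyp8b1*. Points are the 16 libraries. Chow/FGFR4 KD 4 and Chow 2 lie at the lower left of the first panel.

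Other genes of the pathway were followed on 10 lists. Of 12 further enzymes of the classic route, KD on HFD called 2 higher and 2 lower, or 33.3% of them against 3.14% of all genes. In this comparison edgeR called 2 of the 12 and DESeq2 5, against 246 and 389 of all 11324 genes. *Akr1d1*, which reduces the steroid ring, rose (log2 change 0.42, adjusted p = 0.228), as did *Cyp27a1*, which oxidises the side chain (0.32, adjusted p = 0.211). *Hsd17b4* and *Slc27a2*, which serve peroxisomal side chain shortening and acyl-CoA formation, fell (-0.35 and -0.44, adjusted p = 0.079 and 0.190). *Hsd3b7*, the enzyme after CYP7A1, was at -0.07 (adjusted p = 0.878). The median of the 12 was 0.037, against 0.0035 for all genes. Without HFD/FGFR4 KD 1 the number called was 1, and with scaling by totals it was 0.

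The 5 enzymes listed for the alternative route did not include *Cyp27a1*, which serves both routes and was counted with the classic one. Of these 5, 3 were tested. For KD on HFD limma-voom called none, and 0 had an unadjusted p under 0.05 by limma-voom, edgeR or DESeq2. *Cyp7b1*, the oxysterol 7α-hydroxylase of the alternative route, was at 0.71 (adjusted p = 0.733). HFD lowered *Cyp7b1* in saline-injected mice, from 357 ± 146 to 73.8 ± 56.6 CPM (log2 change -2.53, adjusted p = 0.0139). Of 12 tested FXR targets other than *Nr0b2*, KD on HFD called 1, or 8.33% of them against 3.14% of all genes. *Abcb11*, the bile salt export pump, rose from 410 ± 51.0 to 702 ± 181 CPM (0.74, adjusted p = 0.0453) without overlap, after HFD had lowered it from 656 ± 73.6 CPM (-0.68, adjusted p = 0.00965). *Mafg*, an FXR-induced repressor of *Cyp8b1*, was at 0.08 for KD on HFD (adjusted p = 0.812) and rose with HFD (0.42, adjusted p = 0.0147). *Slc51b*, a basolateral bile acid exporter, stayed under the filter, at 0 to 1.62 CPM in the 16 libraries.

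Of 29 partners and cofactors of the receptors, 6.9% were called for KD on HFD, against 3.14% of all genes, with a median log2 change of 0.0989. Of these, 1 was called higher (*Ncoa2*, a coactivator, 0.27, adjusted p = 0.235) and 1 lower (*Smarca4*, a chromatin remodeller, -0.32, adjusted p = 0.240) by limma-voom. Of the 29, edgeR called 0 and DESeq2 1. *Rxra*, the dimer partner of FXR, and *Prox1*, a corepressor of LRH-1 and HNF4A, were at 0.10 and 0.13 (adjusted p = 0.707 and 0.921). Of 19 other tested factors that act on the hydroxylase genes, 1 was called, *Srebf2*, which drives cholesterol synthesis genes (0.53, adjusted p = 0.160), and *Nr1h3*, which encodes the oxysterol receptor LXRα, was at 0.01 (adjusted p = 0.983). Of the 19 tested genes of FGF15 signalling only *Fgfr4* was called by limma-voom, and DESeq2 called 2.

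Of 12 listed LRH-1 targets, KD on HFD called *Abcg8* and *Abcg5* lower, which form the hepatic cholesterol exporter (-1.18 and -0.61, adjusted p = 0.0496 and 0.227). That was 16.7% of them, against 3.14% of all genes, and edgeR called 1 and DESeq2 3. HFD in saline-injected mice called 6 higher and 2 lower (66.7%, against 26% of all genes). Of 19 HNF4A targets, KD on HFD called 3 higher (*Cyp2c29*, *Ces2a* and *Serpina1a*, 0.68, 0.56 and 0.35, adjusted p = 0.102, 0.177 and 0.234) and 1 lower (*Ttr*, -0.51, adjusted p = 0.079). That was 21.1% of them, against 3.14% of all genes, and edgeR called 3 and DESeq2 7. HFD in saline-injected mice called 8 of these 19 lower and 2 higher, with a median of -0.16, in the comparison in which *Hnf4a* was called lower. That was 52.6% of them, against 26% of all genes. Whether the targets followed their receptor was not tested. For the difference of KD effects, none of the 149 tested genes on the 10 lists was called by limma-voom or edgeR, 6 were called by DESeq2, and 23 had an unadjusted p under 0.05 with limma-voom. Among all 11324 genes, limma-voom called 4, edgeR 4 and DESeq2 62, and 765 had an unadjusted p under 0.05 with limma-voom.

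**Figure D5:**
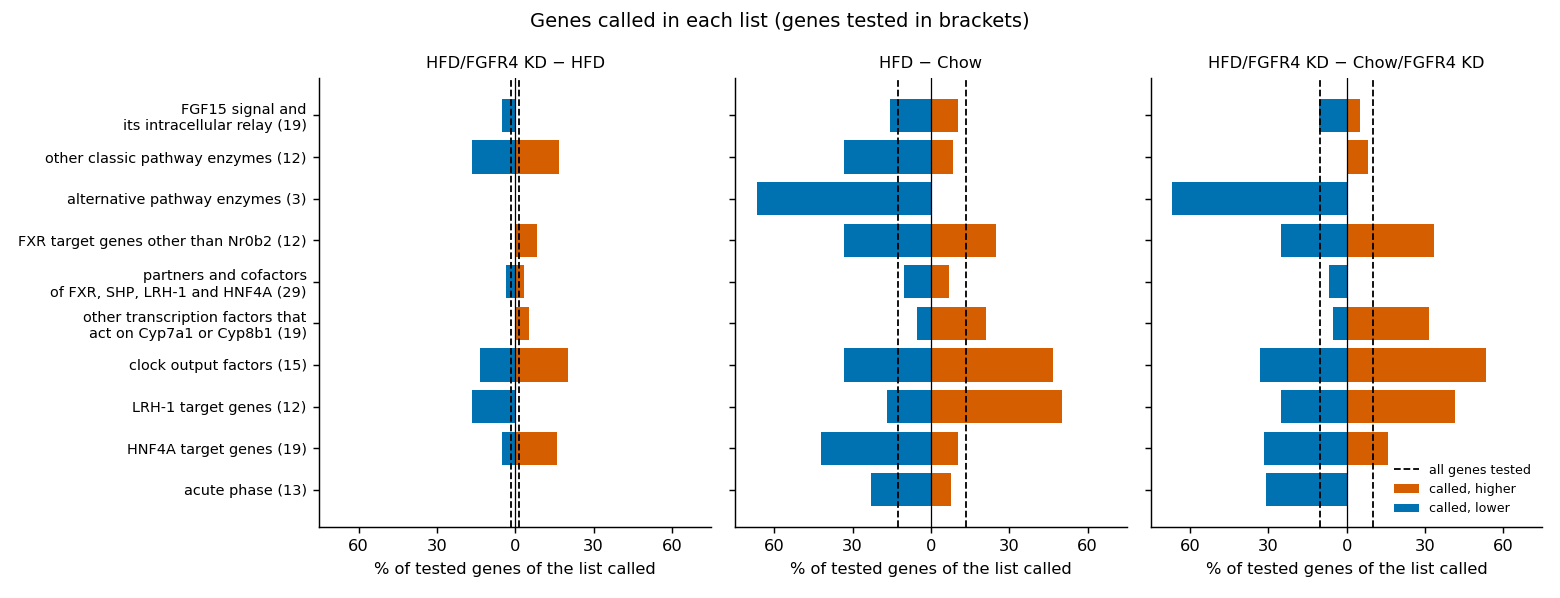
Share of the tested genes of each list that were called higher (right of 0) or lower (left of 0), for KD on HFD and for HFD without and with KD. Dashed lines give the shares among all 11324 genes. In both diet panels the list of clock output factors, which also holds core clock genes, extends farther than the dashed lines on both sides.

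Values that moved with the same comparisons are given beside them. The list of clock output factors, several of which are known to act on *Cyp7a1*, also held core clock genes such as *Arntl*, *Clock* and *Per2*. Of its 15 tested genes, 12 were called for HFD in saline-injected mice (80%, against 26% of all genes). For KD on HFD limma-voom called 5 of 15 (33.3%, against 3.14% of all genes), edgeR 4 and DESeq2 4. *Dbp*, an activator with its peak late in the light phase, was at 3.18 ± 3.55 CPM in Chow, 0.933 ± 0.498 in Chow/FGFR4 KD, 47.0 ± 24.2 in HFD and 20.95 ± 9.33 in HFD/FGFR4 KD. For KD on HFD, *Dbp* and *Per2* fell (-1.09 and -0.85, adjusted p = 0.249 and 0.177). *Arntl*, *Clock* and *Nfil3*, the last a repressor of D-box genes, rose (1.55, 0.53 and 1.16, adjusted p = 0.102, 0.177 and 0.186). *Nr1d1*, a clock repressor, was at 0.19 (adjusted p = 0.803). Without HFD/FGFR4 KD 1, 1 of 15 was called for KD on HFD. The part of the clock, or of the hour of sampling, in the *Cyp7a1* levels was not tested.

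Among markers of other cells, the 7 of Kupffer cells and macrophages summed to 38.6 to 44.6 CPM in Chow, 51.5 to 73.6 in Chow/FGFR4 KD, 74.3 to 135 in HFD and 59.0 to 109 in HFD/FGFR4 KD, with none at 0. HFD in saline-injected mice called 6 of the 7 higher (85.7%, against 26% of all genes), in the comparison in which *Hnf4a* was called lower. KD on HFD called 0 of 7, with 0 at an unadjusted p under 0.05 by limma-voom, edgeR or DESeq2. For KD on chow the ranges of the sums did not overlap, and the median log2 change was 0.579, against 0.00413 for all genes. There limma-voom called 0 of 7, and 1 had an unadjusted p under 0.05 with limma-voom, 1 with edgeR and 3 with DESeq2. The 5 stellate cell markers summed to 88.6 to 128 CPM in Chow, 74.4 to 122 in Chow/FGFR4 KD, 147 to 262 in HFD and 104 to 178 in HFD/FGFR4 KD, with none at 0. HFD in saline-injected mice called 3 of these 5 higher (60%, against 26% of all genes). KD on HFD called none by limma-voom, edgeR or DESeq2, with 1 at an unadjusted p under 0.05 by limma-voom (*Col3a1*, a collagen, -0.91, adjusted p = 0.444) and 2 by each of the other tools. The part of these cells in the *Hnf4a* and *Cyp7a1* levels was not tested.

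Of the 6 hepatocyte markers, KD on HFD called 2 (33.3%, against 3.14% of all genes), *Serpina1a* higher and *Ttr* lower, with the values given above. There edgeR called 1 of the 6 and DESeq2 2. The 5 adipocyte markers summed to 1.18 to 14.6 CPM in Chow, 1.10 to 9.32 in Chow/FGFR4 KD, 14.2 to 85.9 in HFD and 2.60 to 23.5 in HFD/FGFR4 KD. Nearly all of this was *Cidec*, a lipid droplet protein and the only one of the 5 above the filter. With KD on HFD *Cidec* went from 46.8 ± 30.4 to 10.45 ± 8.78 CPM (log2 change -2.29, adjusted p = 0.185 in limma-voom). It was called lower by limma-voom and also called by edgeR, and not by DESeq2, where its unadjusted p was under 0.05. Among the defining adipocyte genes, *Lep* was at 0 in all 16 libraries, *Plin1* was at 0 in HFD, and *Adipoq* held at most 4 counts in a library. The 4 enterocyte markers summed to 29.7 to 135 CPM in Chow, 28.9 to 65.2 in Chow/FGFR4 KD, 121 to 163 in HFD and 83.9 to 125 in HFD/FGFR4 KD. In the same order of groups, 1, 2, 1 and 3 of the 4 were at 0 in every library. The only one above the filter, *Fabp2*, was at -0.37 for KD on HFD (adjusted p = 0.671). HFD called *Fabp2* higher both without KD (1.47) and with KD (1.37). Of 4 endothelial markers and 1 tested cholangiocyte marker, KD on HFD called 0, with 0 at an unadjusted p under 0.05 by limma-voom, edgeR or DESeq2. The part of *Cidec*-expressing cells or of lipid storage in the *Cyp7a1* levels was not tested.

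Of the acute-phase list, limma-voom called 0 of 13 for KD on HFD, with 0 at an unadjusted p under 0.05 by limma-voom, edgeR or DESeq2. KD on chow also called 0 of 13, with a median log2 change of 0.431. On chow, 1 had an unadjusted p under 0.05 with limma-voom, 7 with edgeR and 4 with DESeq2. HFD against chow under KD called 4 of 13 lower with limma-voom (30.8%, against 20.2% of all genes). There edgeR called 9 and DESeq2 7, against 2369 and 2064 of all 11324 genes. The levels of *Saa1* and *Saa2* did not pass the test for KD on either diet.

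Genes with the pattern most like that of a member over the 16 libraries were sought among 8794 genes, by the root mean square difference of standardised log2 levels, in SD units. The nearest to *Cyp7a1* were *Mut* (0.395), *Arhgef19* (0.468) and *Akr1d1* (0.489). Their changes were smaller: for KD on HFD *Arhgef19* rose by 0.40 (adjusted p = 0.177), and *Mut* was at 0.17 (adjusted p = 0.401). The nearest to *Cyp8b1* were *Gpt*, *Tsc22d1* and *Pxdn* (0.514 to 0.550), and to *Nr1h4* *Mrps28*, *Apoc4* and *Srsf4* (0.548 to 0.601). For *Nr0b2* they were *Ip6k2* and ENSMUSG00000106672 (0.484 each), which hold identical estimated counts and so count as 1 gene, and *Tsc22d3* (0.597). For *Nr5a2* they were *Ubr2*, *Arih1* and *Wdr82* (0.541 to 0.575). *Hnf4a* was nearest to *Hspa8* (0.332), *Mup8* (0.384) and *Hsph1* (0.420), of which *Hspa8* and *Hsph1* encode chaperones.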

How the data were processed

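Liver RNA from 16 mice was sequenced. Per the labels, libraries were made with the KAPA mRNA HyperPrep Kit, whereas the methods of the study name HTG EdgeSeq, so the kit is not settled. Reads were assigned by the authors to mouse transcripts with kallisto (fastp and GRCm38 are also named in the submitters' processing notes) and collapsed per gene with tximport. The deposited values are estimated counts, with no scaling or filter seen. Symbols were found for 98.45% of identifiers.

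Genes with under 1 CPM in more than 4 libraries were left out. TMM factors came from edgeR 4.0.16, and the fit was made with limma-voom (limma 3.58.1, R 4.3.3) with a mean for each group over all 16 libraries. Adjusted p values are Benjamini-Hochberg over all 11324 genes. Ratios were compared with two-sided exact permutation tests, and deviations of members with 100000 permutations (Python 3.11.15, scipy 1.17.1). edgeR's quasi-likelihood test and DESeq2 1.42.0 (on rounded counts) were alternatives. Promoter sequences are from RefSeq.

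The members, lists and tests were chosen with earlier results of these data known. Named genes were the members, *Fgfr4*, *Klb*, at most 4 genes of each list by smallest p among those called for KD on HFD, 14 genes named whatever their result, and the 3 nearest genes of each member. On simulated counts with 196 genes changed 2-fold, limma-voom recovered 82.7% at an adjusted p under 0.25, and 18.2% of its calls were false. The simulated counts had no diet effect, no correlation between genes and no library set apart from its group. These shares are therefore not the error rate of the calls made here. None of the 24 pairs of libraries within a group agreed within sampling noise (chi-square per degree of freedom 7.59 to 72.6). Mice were kept 4 to a cage in the study, the labels do not give the cage of a sample, and p values measure the spread between these mice.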

Additional observations from a re-analysis of the deposited data

Results flagged for a closer look

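The KD effect on *Cyp7a1* differed between the diets by 3.01 on the log2 scale (limma-voom interaction, adjusted p = 0.0764), higher with KD on HFD in 4 of 4 libraries. The KD effect on the log2 ratio of *Cyp7a1* to *Cyp8b1* differed by 2.30 (exact permutation p = 0.0155, adjusted p = 0.0952, against a null of no KD effect on either diet). *Cyp8b1* in Chow 2, at 267 CPM, lay apart from the other 3 Chow libraries (384 to 398 CPM), with a gap of 0.899 of the range of the group, past the 95% critical value of Dixon's test. It was the only value so set apart among 36 groups of 4 tested, where chance gives about 1.8.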

How the results depend on the processing

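*Cyp7a1* stayed called for KD on HFD in all 18 alternatives run (log2 change 2.24 to 2.62). When libraries were scaled by totals alone, the median of all genes moved to 0.287 for HFD without KD, 0.141 for HFD with KD and -0.132 for the difference of KD effects, and no member was called for that difference (0 of 6; *Cyp7a1* 2.87, adjusted p = 0.276, or 3.00 relative to the median). Small uncalled changes turned sign there: for KD on HFD *Nr1h4* to -0.068 and *Nr5a2* to -0.060; for HFD without KD *Cyp7a1* to 0.022, *Nr5a2* to 0.23 and *Fgfr4* to 0.072; for HFD with KD *Nr0b2* to 0.13; and among pairs *Cyp7a1* with *Nr1h4* to r = 0.27, *Cyp7a1* with *Hnf4a* to 0.0045 and *Nr5a2* with *Hnf4a* to -0.36. Upper-quartile factors gave *Nr0b2* 0.019 for HFD with KD. No filter gave *Nr1h4* -0.0066 for KD on HFD. *Cyp8b1* for HFD without KD was -0.0015 with DESeq2, -0.0060 with 1 CPM in at least 4 libraries and -0.0034 with only the groups compared. At an adjusted p under 0.05 the members called were 0 for HFD without KD, 1 for HFD with KD and 0 for the difference. The cause was not tested.

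Leaving out each library in turn gave 0 to 1 members called for HFD without KD, 1 to 4 for HFD with KD (the fourth was *Hnf4a*, called lower without HFD/FGFR4 KD 1) and 0 to 1 for the difference, where *Cyp7a1* ranged from 2.75 to 3.38. Ranges that crossed 0 were, for KD on HFD, *Cyp8b1* -0.066 to 0.29, *Nr1h4* -0.059 to 0.082, *Nr0b2* -0.18 to 0.38 and *Nr5a2* -0.046 to 0.14; for KD on chow, *Nr0b2* -0.51 to 0.013 and *Hnf4a* -0.047 to 0.15; for HFD without KD, *Cyp8b1* -0.12 to 0.081 and *Nr5a2* -0.16 to 0.028; for HFD with KD, *Nr0b2* -0.30 to 0.22; and for the difference, *Fgfr4* -0.39 to 0.017.

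The labels number replicates alike in all groups, and 7 of 24 same-number pairs had a correlation of deviations over 0.1 (range -0.297 to 0.244). Pairs of unlike number were not set beside them, so whether the numbers pair libraries was not tested. With a replicate block, *Cyp7a1* changed by 2.45 for KD on HFD (adjusted p = 0.0106) and by 3.05 for the difference (adjusted p = 0.121), no member's call changed, and the genes called for KD on HFD numbered 259 in place of 356. Other settings that kept all libraries moved that count to between 114 (library totals) and 776 (library quality weights), leaving out 1 library moved it to between 89 (without HFD 3) and 605 (without HFD 2), and the count for the difference from 4 to between 0 and 62 (DESeq2). Total counts limit *Nr0b2* most, with 37 to 186 counts a library.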
